A study of Bos taurus with 134 samples.

Results

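The hypomethylated windows of intermediate length are stretches of the bovine genome with a low mean methylation over IVM and IVO oocytes. They were chosen by their measured percentages of methylated CpGs, on chromosomes 1 to 29, with a length of at least 5000 and less than 150000 bp. Coordinates are those of build UMD3.1.1. Each was measured in at least 5 in vitro matured (IVM) and 5 in vivo matured (IVO) oocytes, and the mean of both group means was below 20%. Of 41322 windows in the series, 27612 met the criteria on chromosome, length and measured oocytes, and 1417 of these, or 5.13%, were below 20%. The criterion is on the mean of both groups, and 768 of the 1417 windows were below 20% in both, 319 were at 20% or more in IVM and 330 in IVO. Because the measured values chose the windows, their low level is a description and not a result.

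Single-cell bisulfite libraries of wild-type oocytes at metaphase II were analysed, 26 IVM and 20 IVO, from 4 Holstein heifers aged 15 to 18 months. Both groups were collected from the same heifers, so oocytes share animals within and between groups. IVM oocytes were aspirated immature from follicles of at most 8 mm after GnRH alone, in a collection about a month apart from that of IVO, and completed maturation in culture. IVO oocytes completed it in the follicle, after superovulation with 180 mg of FSH and an ovulatory stimulus with GnRH, and were collected from follicles of at least 8 mm with an expanded cumulus. Library numbers 1 to 18 and 39 to 46 were IVM and numbers 19 to 38 were IVO, so the run of library numbers and the group cannot be told apart for IVO. The labels do not name the heifer of an oocyte, so each group counted as 1 sample, SDs over oocytes, with n as the number of oocytes, describe the oocytes only, and the groups were compared without a test.

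Oocyte DNA is methylated while the oocyte grows, mainly across transcribed gene bodies, by de novo DNA methyltransferases, whose expression differs between mammalian species. Regions that are not transcribed at that stage, and many CpG islands, largely escape it. The result is a landscape of highly methylated and hypomethylated domains, which differs from the almost uniformly methylated genome of somatic cells.

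The hypomethylated windows had a mean level of 14.6% (SD 4.16 over 1417 windows) and lay close to the limit, as 766 of them had a mean of 15 to 20%. A mean below 5% was found in 43 windows. The members just inside the limit were chr5:5623811-5674091, chr3:23703080-23767161 and chr5:119066837-119104930, each with a mean that rounds to 20.0%. The windows just outside were chr17:68598061-68628979, chr1:153164042-153190711 and chr25:42537670-42550028, also at 20.0%. The limit therefore divided a continuous range, and 1116 further windows had a mean of 20 to 25%. With the median over oocytes in place of the mean, 3734 windows were below 20%, and with at least 10 oocytes required in each group 293 were.

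The hypomethylated windows were short and measured in fewer oocytes than the rest. The sources describe windows of a set number of CpGs, and differ in that number. They do not state whether CpGs without calls were counted. A short window is one where the counted CpGs lie close together, and the part of coverage in its length is unknown. The median length of the hypomethylated windows was 16303 bp, against 37804.5 bp over all 27612 windows. The share of windows below 20% was 14.7% below 10000 bp, 10.3% from there to 20000 bp, 5.60% to 40000 bp, 1.91% to 80000 bp and 0.227% to 150000 bp. Together they covered 29829236 bp. A mean of 20.0 oocytes (SD 6.50) was measured per hypomethylated window, against 27.9 (SD 8.28) in the other windows. Within the shortest class the means were 15.3 and 20.7 oocytes, whereas from 80000 bp, with 13 hypomethylated windows, they were 37.6 and 34.6. A mean over few oocytes varies more, and its part in bringing windows below the limit was not tested.

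Across chromosomes the share of hypomethylated windows ranged from 2.35% on chromosome 10, with 22 of 937, to 10.2% on chromosome 23, with 94 of 924. Chromosomes 5 and 29 followed with 8.39% and 8.06%. Chromosomes 22, 28, 27 and 4 were at the low end with 2.47%, 2.50%, 2.62% and 2.74%. Among windows shorter than 40000 bp, chromosome 23 again had the highest share with 14.3%, chromosome 10 had 5.12% and chromosome 27 the lowest with 4.24%.

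Hypomethylated windows were more frequent towards the chromosome end with the highest coordinates. When each chromosome was divided into 10 equal parts, 555 of 6220 windows of the last part were hypomethylated, or 8.92%, and 5.47% of the part before it. The other 8 parts lay between 3.21% and 4.23%. Windows were also shorter there, with a median of 23279 bp in the last part. Among windows shorter than 20000 bp, the share was 15.6% in the last 5 Mb, 7.96% in the first 5 Mb and 10.7% between them. From 20000 bp it was 5.01%, 2.28% and 2.45%, so the higher share near this end was present in both length classes.

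Some stretches of 1 Mb held many hypomethylated windows. Of 2305 such bins, 655 held at least 1, and 67 bins with 5 or more held 30.4% of all hypomethylated windows. The 67 bins were picked by this count, and the share of all windows that they held was not determined. The highest count was in chr23:50000001-51000000, with 17 hypomethylated windows of 54 and a mean level of 11.7%. This bin was followed by chr29:47000001-48000000 with 14 of 44 and chr29:50000001-51000000 with 11 of 43.

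Hypomethylated windows were followed by another more often than windows over all pairs of neighbours, although most stood alone. Of the 1417 windows, 309 lay in 137 runs of at least 2 consecutive windows, or 21.8% (exact 95% interval 19.7 to 24.0%, counting error only), and 1108 stood alone. There were 110 runs of 2, 20 of 3, 6 of 4 and 1 of 5 windows. Where the next window in the table had also met the criteria, it was hypomethylated after 172 of 1009 hypomethylated windows, or 17.0%, against 5.05% over all 21007 pairs of neighbours. The next window was at 80% or more in 4.86% of these cases, against 23.9% over all pairs. The pairs were not matched for window length. The share in runs rose to 34.9% when 1 other window could be bridged, and was 1.90% at a limit of 10%.

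Methylation rose with distance from a hypomethylated window. The windows directly beside had a mean level of 39.7%, those at the second position 45.0%, at the third 48.9% and at the fifth 51.9%. From the sixth to the ninth position it lay at 51.5 to 52.3%. At position 10, a median of 291306 bp away, the mean was 53.0%, still below the 57.8% of all windows. The share of hypomethylated windows was 16.6% directly beside and 7.14% at position 10, against 5.13% overall.

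The longest run, chr23:51651344-51728606, comprised 5 windows over 77263 bp with means of 12.3, 15.8, 11.9, 12.4 and 15.5%. The windows beside it were at 27.8% and 35.8%. Among the runs of 4 windows, those of the largest span were chr14:23675552-23853353, chr13:41894922-42063351, chr23:30777774-30945357, chr15:85065436-85142567 and chr4:69312287-69348987, with mean levels of 16.0, 15.3, 13.0, 17.3 and 9.00%. In the chromosome 14 run the window after it was at 86.6%, the steepest border among these 6 runs. Not every run ended at a rise. The window before the chromosome 14 run was at 17.5%, and the one before the chromosome 15 run at 17.4%. Those beside the chromosome 4 run were at 13.3 and 14.1%. These windows were below 20% but did not meet the criteria on length or measured oocytes. In the chromosome 23 run at 30777774, 3 of the 4 windows had at least 3 oocytes at 50% or more, and every window had a median of 0% over oocytes.

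The run on chromosome 4 lay in the HOXA cluster, whose genes encode homeodomain transcription factors that pattern the body axis. Its windows had means of 5.00, 11.3, 10.3 and 9.47%. Promoter midpoints of HOXA10, HOXA9 and HOXA7 fell within it. The mean over the run, taken in each of 33 measured oocytes, had a median of 1.85% and a highest value of 50.0%. The group means were 5.28% in IVM and 12.7% in IVO. Of the 6 named runs, 4 were higher in IVM and 2 in IVO.

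Promoter positions were looked up for 3 gene lists on chromosomes 1 to 5, and the level given is that of the whole window and not of the promoter. Of 37 developmental transcription factors, the promoter midpoints of 12 fell in 9 hypomethylated windows and those of 15 in other windows of the same length class, with levels of 20.8 to 60.8%. Another 6 lay in shorter windows, 5 of which were below 20%, 1 in a longer window, 2 in windows measured in too few oocytes and 1 in no window. Of all 1257 genes whose first listed promoter on these chromosomes fell in a window that met the criteria, 65, or 5.17%, lay in a hypomethylated window. The list was chosen with earlier results known, the windows were not matched for length, and the difference was not tested. HOXD12 and HOXD13 shared a window at 7.36%, HOXC12 lay in a window at 7.73% and DLX5, a factor of limb and craniofacial development, in one of 30478 bp at 7.78%. DLX2 was at 9.27%, HOXC11 at 17.9%, HOXC5 and HOXC8 at 18.4% and HOXA13, close to the limit, at 19.9%. The window of HOXC11 had means of 3.76% in 15 IVM and 32.1% in 7 IVO oocytes, and 2 oocytes were at 50% or more. The window of HOXD12 and HOXD13 lay the other way, at 10.9% in 12 IVM and 3.84% in 6 IVO oocytes. This direction rested on 1 IVM oocyte at 100%. The window of HOXC12 was also higher in IVM, at 11.3% against 4.21% in IVO. Of the 9 windows, 3 were higher in IVM and 6 in IVO. The tally counts the window of HOXD12 and HOXD13 as higher in IVM, so it also depends on single oocytes.

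The clusters were not hypomethylated throughout. HOXD11 lay just above the limit at 20.8%, whereas HOXD1 was at 36.5%, HOXD9 at 48.2%, HOXC9 at 44.5% and HOXA2 at 51.4%. Of 5 Wnt ligands, secreted signalling proteins, 3 lay in windows that met the criteria, too few to read a share from, and none of these was hypomethylated. WNT6 was at 23.9%, WNT1 at 25.0% and WNT4 at 54.5%, WNT16 lay in a longer window and WNT2 in none. MEST, an imprinted gene methylated on the maternal allele, lay in a window at 62.8%. SGCE, another such gene, had a promoter in a longer window at 80.4% and one in a window of 6725 bp at 92.8%.

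The low mean of a hypomethylated window was made of unlike oocytes. Of 28348 values, 43.6% were 0, 28.4% lay above 0 and below 20%, 18.7% at 20 to 50% and 9.26% at 50% or more, including 3.52% at 100%. In windows of 80% or more, 94.7% of values were at 50% or more. The SD over oocytes had a median of 22.3 percentage points per hypomethylated window, 33.7 in windows of 20 to 80% and 21.0 in windows of 80% or more. The number of CpG calls behind a value is unknown, so its part in this spread was not tested.

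Single oocytes at 50% or more were found in most hypomethylated windows. None was found in 196 windows, 1 in 416, 2 in 422 and 3 in 235. The other windows had 4 to 10. Only 1 window was at 0% in every measured oocyte. Among the 36 oocytes with at least 15000 windows measured, 492 hypomethylated windows had exactly 1 oocyte at 50% or more. The high value was 100% in 200 of them. The single oocyte was IVM in 261 and IVO in 231, from 21 and 15 such oocytes, and every one of the 36 oocytes contributed, between 4 and 22 windows each.

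The hypomethylated windows measured in at least 30 oocytes numbered 115, and 8 of these had no oocyte at 50% or more. Of all 115, the lowest was chr29:47164616-47181842, with a mean of 3.40% and a value of 0% in 38 of 46 oocytes. Its highest values were 50.0% in IVM library 7 and 25.0% in the next oocyte. It was followed by chr10:36573523-36598511 at 4.12%, chr2:136823776-136860362 at 6.19%, chr25:1464820-1480468 at 8.04%, where 2 oocytes were at 50% or more and the highest, IVM library 12, at 100%, and chr2:73308563-73347524 at 9.62%. In the chromosome 10 window the highest of 20 IVM oocytes was at 33.3% and the highest of 15 IVO oocytes at 8.11%, with medians of 7.42% and 0%.

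The window with the most high oocytes was chr10:103313706-103339969, with 10 of 46 at 50% or more, 6 of them IVM and 4 IVO, and 25 at 0%. Its mean was 18.9%. In IVM the median was 5.97% and the highest value 89.5%, and in IVO they were 0% and 66.7%. The next were chr23:15246625-15261718 with 8 of 41 oocytes, chr1:147585925-147600297 with 7 of 45, chr2:54076254-54119036 with 7 of 35. The fifth place was shared by 9 windows with 6 such oocytes, of which chr24:30957906-31020540, with 6 of 44, had the lowest mean and was the only 1 with a median of 0% over oocytes. The median was also 0% in the first 4 windows, and both groups had oocytes at 50% or more in each of these 5.

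The share of high values differed between oocytes and went with the number of windows measured. Of the 10 oocytes with fewer than 15000 windows, 9 were among the 10 with the highest share. The median share was 18.3% in these 10 oocytes and 8.33% in the other 36. In IVM libraries 1 to 18 the share ranged from 4.42% in library 10, with 769 hypomethylated windows measured (exact 95% interval 3.08 to 6.12%), to 37.0% in library 7, with 119 (28.3 to 46.3%). In IVO it ranged from 5.99% in library 28 (4.65 to 7.57%) to 29.5% in library 30 (18.5 to 42.6%). In IVM libraries 39 to 46 it ranged from 7.02% in library 39 (5.34 to 9.05%) to 36.7% in library 41 (27.2 to 47.1%). Libraries 7, 30 and 41 had 9330, 6570 and 8549 windows measured.

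Shallow oocytes were also higher on the same windows, and over all windows that each had measured. Over those of the 27612 windows that each had measured, their mean was 70.2% (SD 4.76, n = 10), against 57.9% (SD 2.95, n = 36) in the other oocytes. These means are over unlike sets, as a mean of 25.9% of the 27612 windows was measured in the 10 oocytes and 69.1% in the other 36. In the hypomethylated windows, the 10 oocytes exceeded the mean of the other oocytes, over the windows each had, by a mean of 8.31 percentage points, with a range of -0.502 to 19.5. Among the 36 others IVM library 16, with 18631 windows, stood highest, with a share of 20.5% and an excess of 7.16 percentage points. The mean over X-chromosome windows was 78.4, 77.7 and 75.5% in libraries 7, 30 and 41, which had the highest shares of their runs, and 55.5, 56.3 and 56.5% in libraries 10, 28 and 39, which had the lowest. Mitochondrial windows had means of 9.78, 13.3 and 6.98% in the former and 20.1, 7.47 and 2.49% in the latter, with no common direction. The part of depth in these values was not tested.

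High values in neighbouring hypomethylated windows are rare by construction, since both windows were chosen for a low mean, and are given as a description. Among the 36 oocytes with at least 15000 windows, the neighbouring hypomethylated window was also at 50% or more in 26 of 250 cases, or 10.4%, against 5.40% of 4150 cases when the first window was below 50%. For hypomethylated windows at the second position the shares were 7.41% and 6.12%, at the third 1.32% and 6.82% and at the fifth 4.48% and 6.29%, so the order did not hold beyond the second position. The pairs were counted in both directions. Windows of any level directly beside differed from their own mean by 1.16 percentage points where the hypomethylated window was at 50% or more and by -2.62 where it was at 0%, and at the second position by -0.756 and -0.729. Over all 46 oocytes, 16 stretches of at least 2 consecutive hypomethylated windows were at 50% or more in 1 oocyte, 10 in IVM and 6 in IVO, and 4 of these lay in oocytes with fewer than 15000 windows. A single stretch had 3 windows, in IVO library 37 at chr23:30816962-30945357, with 100% in each, where the other oocytes had a mean of 17.0%. The stretches of 2 windows with the largest span were IVO library 32 at chr11:6980057-7128136 with 50.0 and 83.3%, the same oocyte at chr23:31451614-31538719 with 100 and 50.0%, IVM library 43 at chr13:41980848-42063351 with 66.7% in both, and IVM library 10 at chr11:88714265-88787064 with 50.0 and 75.0%.

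The mean over the hypomethylated windows differed between IVM and IVO by less than the spread over oocytes. It was 17.4% in IVM (SD 6.13, n = 26) and 15.8% in IVO (SD 3.39, n = 20), a difference of 1.65 percentage points. Without the oocytes with fewer than 15000 windows the difference was 0.491 percentage points, between 15.1% (SD 2.21, n = 21) and 14.6% (SD 1.19, n = 15). In these oocytes the share of values at 0% was 41.3% in IVM (SD 5.57) and 47.0% in IVO (SD 5.09), a gap of more than 1 SD. IVM libraries 39 to 46 were at 43.7% (SD 4.91, n = 7), less than 1 SD from IVO. Fewer windows were measured in these IVO oocytes than in the IVM oocytes, with means of 24892 and 27213, and the share at 0% was 55.1% in the 10 oocytes with fewer than 15000 windows. The part of depth was not tested. Mitochondrial means also differed between the runs, at 25.4% in IVM libraries 1 to 18, 5.60% in 39 to 46 and 10.4% in IVO. Whether what sets these means apart also bears on the share at 0% or the median over windows was not tested. The median over windows was also read in the oocytes with at least 15000 windows. It had a mean of 6.77% in IVM (SD 3.11, n = 21) and 3.56% in IVO (SD 3.45, n = 15). Among these, IVM libraries 39 to 46 were at 5.72% (SD 3.52, n = 7), less than 1 SD from IVO. Over all oocytes the mean of this median was 5.91% in IVM and 2.67% in IVO. For the difference of 1.65 percentage points over all oocytes, leaving out IVM library 4, 7 or 41 alone gave 1.08, 0.977 or 1.07. By run, IVM was at 17.7% (SD 6.24, n = 18) in numbers 1 to 18 and at 16.9% (SD 6.25, n = 8) in numbers 39 to 46. The direction in the second run rested on library 41. Without it the run was at 14.7% (SD 1.66, n = 7), and its difference from IVO was -1.06 percentage points. Against the IVO oocytes with at least 15000 windows it was 0.141. IVM was higher in 734 hypomethylated windows and IVO in 682. Over all 27612 windows, IVM was higher in 11571 and IVO in 16018.

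The level was also read in oocytes that the choice had not used. On IVM libraries 1 to 18 and the IVO oocytes, 1322 windows were chosen by the same criteria. Averaged per oocyte, they had means of 16.2% (SD 4.79, n = 18) in the choosing IVM and 16.3% (SD 3.39, n = 20) in the IVO oocytes. In IVM libraries 39 to 46 they had a mean of 22.6% (SD 9.89, n = 8), with a lowest oocyte of 17.6% and a highest of 46.6%, against 58.6% (SD 7.18) for all windows that met the other criteria. Without the oocytes with fewer than 15000 windows, of which library 41 was the only 1 among these 8, the mean was 19.2% (SD 2.19, n = 7), and the choosing oocytes were at 14.5% (SD 2.36, n = 14) and 15.3% (SD 1.29, n = 15). Averaged per window over all oocytes, the levels were 19.3% in libraries 39 to 46 against 14.2% and 15.0%. The level was higher than in the choosing oocytes by each of these averages. The windows were chosen for a low mean in the choosing oocytes, so a higher level in other oocytes follows from the choice. Over all windows that met the other criteria, the choosing oocytes were higher, at 59.9% in IVM and 62.2% in IVO. Of 1086 of these windows measured in at least 3 of the 8 oocytes, 611, or 56.3%, were below 20%, where 10% of all 24953 such windows were. At 80% or more were 2 of the 1086 windows and 6237 of the 24953.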

How the data were processed

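Per the labels and the study's methods, the authors trimmed the bisulfite reads with Trim Galore 0.4.4, used Bismark 0.18.2 for alignment against build UMD3.1.1, and deposited 1 percent value of CpG methylation per window and oocyte. The number of calls per window was not given, so depth is known only as the number of windows measured per oocyte. Members and gene lists were chosen with earlier results of these data known. Columns were matched to oocytes by library name. Named windows were the 6 longest runs, the 5 lowest members and the 5 with most oocytes at 50% or more among those measured in at least 30 oocytes, the 3 on either side of the limit, the extreme oocytes of each run of library numbers and the 5 longest high stretches. Promoter positions came from a supplementary sheet held in part, for chromosomes 1 to 5, and only positions were used. The exact intervals, where printed beside a share, are Clopper-Pearson intervals. Alternatives covered the limit, the oocytes and the average. The code was tested on simulated data. Expression values were not used here. Python 3.11.15, numpy 2.4.6, pandas 2.3.3 and scipy 1.17.1 were used.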

Additional observations from a re-analysis of the deposited data

Results flagged for a closer look

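IVM library 41 stood apart from the other 7 oocytes of IVM libraries 39 to 46 in 3 values. Its level in the windows chosen on libraries 1 to 38 was 46.6%, and the next oocyte was at 22.7%. Its mean over the hypomethylated windows was 31.8%, with the next at 17.7%, and its share of values at 50% or more was 36.7%, with the next at 12.7%. Each gap was past Dixon's limit for 8 oocytes, which chance passes in about 1 in 20 groups. The labels used here do not name the heifer of an oocyte, and library 41 was itself used in choosing the windows behind the mean and the share, so these values are a description. The 3 values come from overlapping windows. Library 41 also stood apart beyond the hypomethylated windows. It was at 76.0% over the 21.8% of the 27612 windows that it had measured, and the next oocyte was at 59.1% over its own. Over X-chromosome windows it was at 75.5%, where the next was at 61.1%. It had 8549 windows measured, the fewest of the 8, and the part of depth was not tested.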

How the results depend on the processing

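The number of hypomethylated windows, 1417, followed its criteria. It was 211 at a limit of 10%, 651 at 15% and 2533 at 25%, 293 with 10 oocytes required in each group and 3734 with the median over oocytes. It was 1820 with 3 oocytes required, and leaving out 1 oocyte at a time gave 1272 to 1453. The share in runs, 21.8%, was 1.90, 14.6 and 32.5% at limits of 10, 15 and 25%, 34.9% with 1 window bridged, 17.9% for neighbours within 1000 bp, 18.5% without IVM libraries 39 to 46 and 24.9% without the oocytes with fewer than 15000 windows. The cause was not tested. The difference between IVM and IVO, 1.65 percentage points, was 0.141 to 1.90 under 11 alternatives and 0.977 to 2.31 with 1 oocyte left out, within 1 SD over oocytes (5.13). It turned to -1.06 for IVM libraries 39 to 46 without library 41 against IVO. Leaving out single oocytes for this difference, and the settings without library 41, were chosen after seeing the data. The share at 50% or more was 9.10 to 9.39% with 1 oocyte left out, and 16.7 and 3.68% with 30 and 80% as the limit for a high value. The level in IVM libraries 39 to 46 ranged from 17.1 to 24.8% over other limits and with 10 oocytes required. Leaving out library 41, chosen after seeing the data, gave 19.2%. No paired analysis was possible because the labels used here do not name the heifer of an oocyte, although both groups share heifers. Unknown calls per window limit all values.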

Other observations

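By the same criteria, 33 of 1034 windows of the X chromosome, or 3.19%, were hypomethylated. Their means were 14.4% in IVM and 13.2% in IVO, against 58.0% over the 1034 windows. Of these windows 7 lay in runs, the longest of 3 windows, and 10.3% of their values were at 50% or more.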
